A study of Mus musculus with 2 samples.

Results

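The genes described here encode the laminin chains Lama1, Lama2, Lama3, Lama4, Lama5, Lamb1, Lamb2, Lamb3 and Lamc1, taken by gene symbol from the count matrices of both libraries. Each symbol matched a single gene, so the set holds 9 of the 32285 genes measured. The gamma chain Lamc3 was followed beside them, because some laminins cannot be assembled without it. Kidney nuclei came from male T1+/+ mice that were 11 weeks old at surgery. In the nephrectomy group the right kidney was taken out and, 1 week later, both poles of the left kidney were tied off, which leaves a remnant (5/6 nephrectomy). In the sham group both flanks were opened and closed without removing tissue. Kidneys were collected 4 weeks after surgery and frozen, and single nuclei were captured on the 10x Genomics Chromium system. Each group is 1 library, and the labels do not say how many mice it holds. No difference between the groups therefore has a replicate check and no p-value is given. Intervals are exact 95% limits that cover counting error only.

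Laminins are secreted as trimers of 1 alpha, 1 beta and 1 gamma chain, which must be made and joined inside the same cell. Outside the cell they polymerise into the sheet that organises a basement membrane, where nidogen links them to collagen IV and where integrins and dystroglycan on the cell surface bind them. A trimer is named by its chain numbers, so that laminin-521 (LM-521) holds Lama5, Lamb2 and Lamc1. In the kidney, laminin-521 is known as the main laminin of the mature glomerular basement membrane, and tubules, vessels and the interstitium carry other combinations.

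After filtering, 2870 sham nuclei with 19305026 UMIs (unique molecular identifiers, the counted transcripts) and 3080 nephrectomy nuclei with 25918042 UMIs were kept, with median depths of 5203.5 and 6960 UMIs per nucleus. The libraries shared 2 cell barcodes. Clusters were called from marker genes, and 11 classes had at least 30 nuclei in each library. They ranged from proximal tubule-like nuclei (907 sham, 1026 nephrectomy) to intercalated type A-like nuclei (31 and 39). Levels are given as CPM, the UMIs of a gene per 1000000 UMIs of the class. Podocyte markers summed to 135276 CPM in the podocyte-like class of sham and 128043 CPM in that of nephrectomy. In the leukocyte-like class, a single cluster, the 12 proximal tubule markers summed to 10680 CPM in sham and 12201 in nephrectomy, against 19123 and 20759 in the proximal tubule-like class itself. Fibroblast markers summed to 4199 and 5398 CPM in the fibroblast-like class, and to 5391 and 9195 CPM in the small mural-like cluster. A further 693 sham and 571 nephrectomy nuclei lay in unnamed clusters, mostly of low depth (median 1297 and 1298 UMIs). The proximal tubule-like class was held by different clusters in the libraries: cluster 11 (led by Slc7a13 and Slco1a1) had 231 sham nuclei and 1 nephrectomy nucleus, cluster 12 had 137 and 24, and cluster 1 (with Cyp4a14 among its leading genes) had 84 and 476.

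Over all kept nuclei, none of the 9 chains differed between the libraries by 1.5-fold or more in either direction. Of the 17407 genes with at least 20 UMIs over both libraries, 9.27% were at least 1.5-fold higher in nephrectomy and 10.7% at least 1.5-fold lower. The ratios of nephrectomy to sham ran from 0.855 (0.736 to 0.993) for Lama4 to 1.24 (1.15 to 1.34) for Lamc1, and the median log2 ratio of the 9 chains was -0.02, beside 0.02 over all genes. Lama1 (ratio 1.20), Lama5 (1.19) and Lamc1 were the chains whose interval lay above 1. Lama3 (0.887), Lama4 and Lamb1 (0.925) had intervals below 1, and those of Lama2, Lamb2 and Lamb3 held 1. A sum over a whole kidney library cannot tell fewer nuclei of a type from fewer transcripts per nucleus, so the chains are described within classes.

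**Figure D1:**
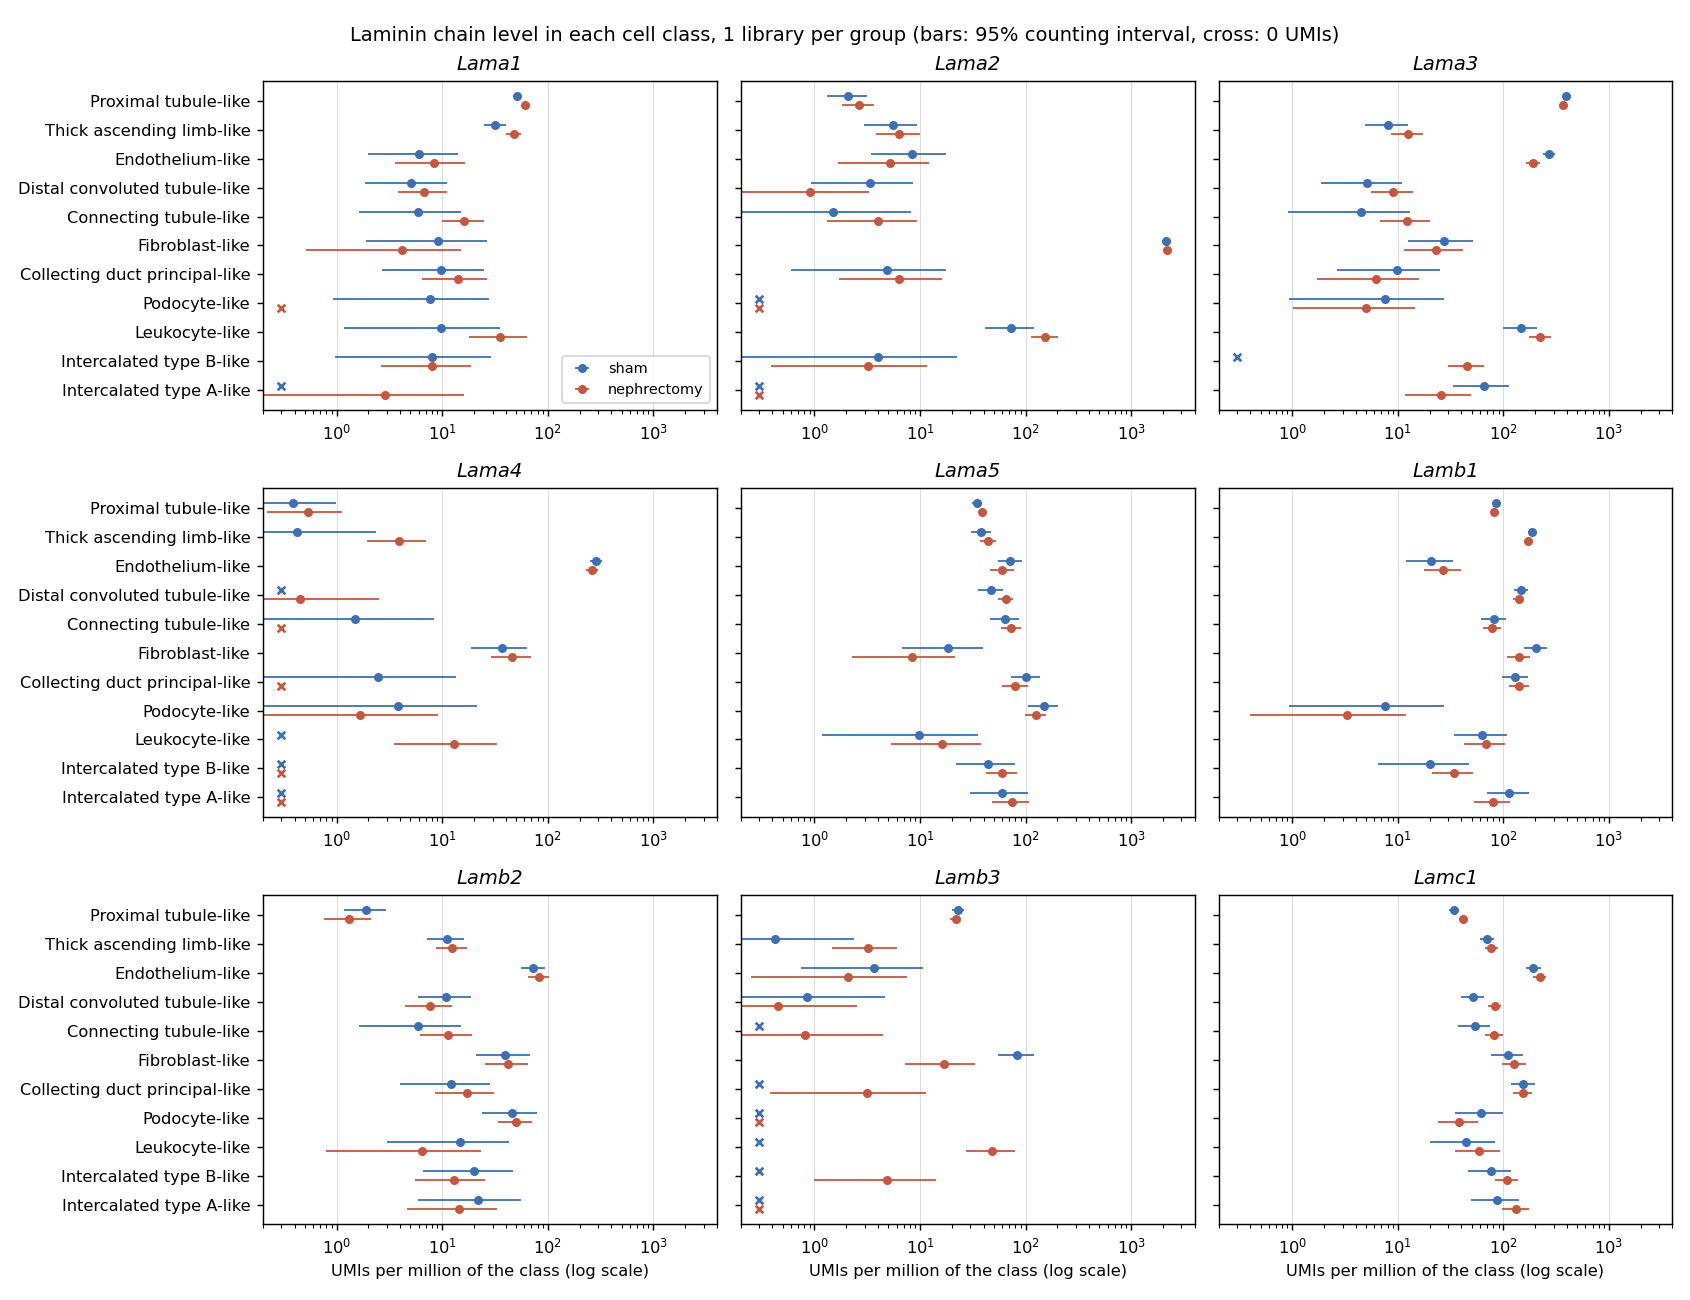
Level of each laminin chain in the 11 cell classes, in CPM on a log axis, with 1 library per group (blue, sham; red, nephrectomy). Points are class sums, bars are 95% counting intervals and crosses mark 0 UMIs. Lama2 stands highest in the fibroblast-like class, Lama3 in the proximal tubule-like class and Lama4 in the endothelium-like class, while Lama5 and Lamc1 are spread over most classes.

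Among the alpha chains, Lama2 (chr10:26980036-27619758, minus strand, GRCm38), the alpha 2 chain known from muscle, nerve and mesenchymal basement membranes, was found mainly in the fibroblast-like class. That class held 697 of its 996 UMIs in sham and 1043 of 1347 in nephrectomy (70.0% and 77.4%). Its level there was 2124 CPM in sham and 2191 CPM in nephrectomy, a ratio of 1.03 (0.936 to 1.14), so the libraries did not differ beyond counting error. The finer clustering (Leiden resolution 2) moved this ratio to 1.64, past 1.5-fold. A Lama2 UMI was seen in 97.3% of fibroblast-like nuclei in sham and 84.2% in nephrectomy, at median depths of 3979 and 4005 UMIs. With every nucleus thinned to 1000 UMIs the shares were 77.3% and 71.9%. In the proximal tubule-like class, which served as the background from free RNA, the shares were 1.87% and 2.92% at median depths of 10124 and 11171 UMIs. Podocyte-like nuclei had 0 Lama2 UMIs in both libraries, where a count of 0 allows up to 3.

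Within the fibroblast-like class, cluster 14 (62 nuclei in each library, led by Abca8a and C7) had 2230 and 2372 CPM of Lama2, and cluster 24 (13 and 33 nuclei) had 1316 and 1429 CPM. Both clusters thus gave a nephrectomy level close to that of sham, with ratios of 1.06 and 1.09. The mural-like cluster, led by Ren1 and Myh11 and too small to be compared (19 and 12 nuclei), was the next highest at 1075 and 706 CPM.

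Lama5 (chr2:180176373-180225859, minus strand), the alpha 5 chain of most adult epithelial and vascular basement membranes, showed the opposite spread. It was called present in 9 of the 11 classes in both libraries. The rule needs at least 10 UMIs and a lower limit of the class level above 0.3 of the level of the whole library. By this rule the share of all genes called present ran from 22.1% in the podocyte-like class to 82.7% in the proximal tubule-like class of sham. In nephrectomy the shares of these classes were 33.9% and 81.2%. Across 22 sums (11 classes in 2 libraries) the log2 levels of Lama5 and Lama2 had a Pearson correlation of -0.83, given as a description because the sums share their libraries. Their upstream sequences are shown to set the broad gene beside the fibroblast gene. Both are from RefSeq (build GRCm38.p6), cover the 250 bases before the start site on the gene's own minus strand, read 5′ to 3′, and have the GC boxes in capitals. The Lama5 window is chr2:180225860-180226109 and the Lama2 window chr10:27616943-27617192, whose start site lies inside the longer GENCODE span of the gene.
Lama5: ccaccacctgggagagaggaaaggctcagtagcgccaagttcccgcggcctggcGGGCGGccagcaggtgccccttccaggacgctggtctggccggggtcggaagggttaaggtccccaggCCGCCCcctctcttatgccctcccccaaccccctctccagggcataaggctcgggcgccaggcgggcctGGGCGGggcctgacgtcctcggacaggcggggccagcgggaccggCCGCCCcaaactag
Lama2: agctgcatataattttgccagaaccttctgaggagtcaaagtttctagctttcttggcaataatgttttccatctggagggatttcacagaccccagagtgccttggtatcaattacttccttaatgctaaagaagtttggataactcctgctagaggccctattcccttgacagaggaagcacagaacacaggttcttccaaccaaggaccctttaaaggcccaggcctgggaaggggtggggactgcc

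The windows differ plainly. The Lama5 sequence has 19 CpG dinucleotides and a GC content of 72.4%, and holds 4 GC boxes (GGGCGG, searched on both strands), a motif found in 32.7% of the 32851 promoter windows of this length. The Lama2 sequence has no CpG, a GC content of 47.2% and no GC box. Over all windows the medians were 6 CpG dinucleotides and 52.4% GC. Windows were matched for 5 of the 9 chains. Lamb1 had 14 CpG dinucleotides and 2 GC boxes, Lamb2 had 3 and none, and the windows of both Lamb3 start sites had 2 and 3 and no GC box. None of the 5 genes had the letters TATAAA, present in 12.4% of windows, or the AP-1 motif TGANTCA, present in 6.75%. A match or its absence describes these letters only.

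Among the compared classes Lama5 was highest in the podocyte-like class. Its level there was 149 CPM (39 UMIs) in sham and 126 CPM (76 UMIs) in nephrectomy, a ratio of 0.845 (0.567 to 1.28). Principal cell-like nuclei of the collecting duct followed in both libraries at 100 and 79.8 CPM, with counting intervals that overlapped those of the podocyte-like class (106 to 203 against 72.0 to 136 CPM in sham). Levels of 59.5 and 74.3 CPM in the intercalated type A-like class, 63.9 and 73.4 in the connecting tubule-like class, 71.5 and 60.2 in the endothelium-like class and 47.3 and 64.7 in the distal convoluted tubule-like class came next and overlapped one another. The proximal tubule-like class was lower at 34.7 and 39.0 CPM, but through its size it gave 45.4% and 39.5% of all Lama5 UMIs. The fibroblast-like class was lowest in nephrectomy, at 8.40 CPM from 4 UMIs. In the small mural-like cluster, outside the comparison, Lama5 had 7 of 74386 UMIs in sham and 11 of 53832 in nephrectomy. The latter was a higher level than that of the podocyte-like class. Podocyte-like nuclei with a Lama5 UMI made up 48.9% in sham and 59.0% in nephrectomy (13.3% and 16.7% thinned), against 6.67% and 4.21% of fibroblast-like nuclei.

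Lama3, whose product is best known for anchoring skin and other stratified epithelia, was the most abundant alpha chain of the proximal tubule-like class per length. Its level there was 36.3 CPM per kb of merged exons in sham and 34.1 in nephrectomy, against 5.27 and 6.34 for Lama1 and 3.05 and 3.43 for Lama5. Per kb of gene span, which suits nuclear RNA with introns, Lama3 also led at 1.57 and 1.47 CPM per kb, but Lama5 (0.702 and 0.788) then stood above Lama1 (0.407 and 0.489). Whether intronic reads were counted is not given in the sources used here, so both lengths are printed. The proximal tubule-like class held 83.2% and 81.1% of Lama3 UMIs, and 83.4% and 85.9% of its nuclei had at least 1 (30% and 25.6% thinned). In podocyte-like nuclei, a type that should carry little of this RNA, the shares were 4.44% and 3.85% at median depths of 5631 and 6825.5 UMIs.

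The Lama3 level of the proximal tubule-like class was 390 CPM in sham and 367 CPM in nephrectomy, a ratio of 0.939 (0.901 to 0.980). Its clusters differed more from one another than the libraries did. Cluster 0 had 523.2 and 457 CPM, cluster 1 had 462 and 381, cluster 8 had 167 and 116, and cluster 12 had 507 and 488, so nephrectomy was the lower library in each of these 4. Cluster 11, with 331.7 CPM in sham, had 1 nephrectomy nucleus. Among the other classes the endothelium-like class was highest in sham, at 270 CPM (223 UMIs) in sham and 191 CPM (184 UMIs) in nephrectomy, a ratio of 0.707 (0.578 to 0.863). The leukocyte-like class stood at 146 and 224 CPM, beside its high proximal tubule markers. Of the endothelial clusters, cluster 4 (led by Nlgn1, Tll1 and Rgcc) gave 269 and 174 CPM and cluster 16 (led by Sox17 and Jam2) gave 283 and 350 CPM, so the direction was not shared between them.

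**Figure D2:**
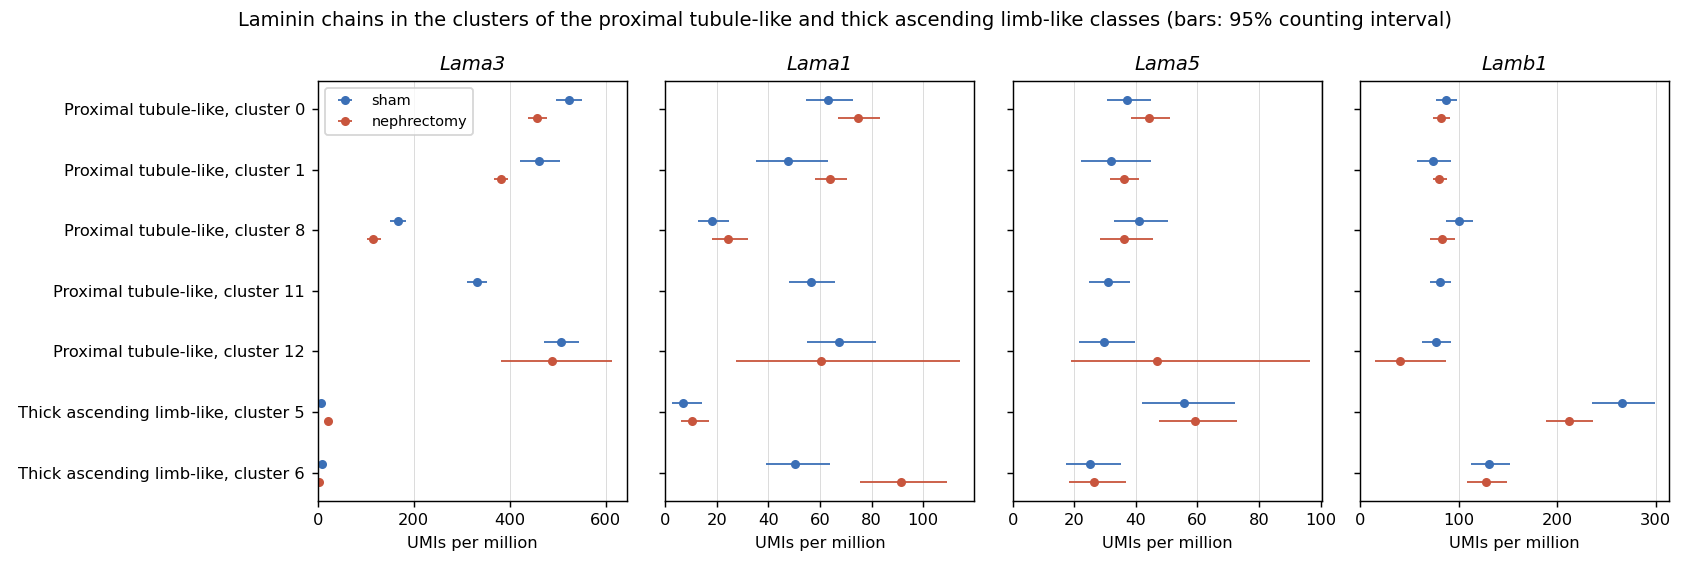
Lama3, Lama1, Lama5 and Lamb1 in the clusters of the proximal tubule-like and thick ascending limb-like classes, in CPM with 95% counting intervals (blue, sham; red, nephrectomy; a cluster with under 20 nuclei in a library has no point for it). Lama3 is low in cluster 8 in both libraries, and Lama1 is higher in cluster 6 than in cluster 5 of the thick ascending limb-like class.

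Lama1 (chr17:67697259-67822647, plus strand), the alpha 1 chain of early embryonic basement membranes that adult kidney keeps in its tubules, was found in the proximal tubule-like and thick ascending limb-like classes, and in few others. The proximal tubule-like class held 74.7% and 69.0% of its UMIs, at 51.1 CPM (535 UMIs) in sham and 61.3 CPM (794 UMIs) in nephrectomy, a ratio of 1.20 (1.08 to 1.34). The thick ascending limb-like class had 31.8 CPM (75 UMIs) and 47.6 CPM (134 UMIs). That ratio of 1.498 (1.12 to 2.01) was just under the 1.5-fold line. It passed the line in 5 of 8 alternatives, which ranged from 1.36 to 1.78. Most of the Lama1 of this class lay in cluster 6, led by Sgcz and Ano4, with 50.3 and 91.2 CPM. Cluster 5, led by Enox1 and Egf, had 7 and 16 UMIs. The other compared classes had at most 20 Lama1 UMIs in a library, for example 5 and 8 in the endothelium-like class and 2 and 0 in the podocyte-like class.

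Lama4 (chr10:38965515-39110188, plus strand), the alpha 4 chain of blood vessel walls, was mainly endothelial by its share of UMIs. The endothelium-like class held 71.7% and 66.4% of its UMIs, at 288 CPM (238 UMIs) in sham and 263 CPM (253 UMIs) in nephrectomy, which gives a ratio of 0.910 (0.760 to 1.09). At least 1 Lama4 UMI was seen in 39.9% and 38.9% of the class (20.3% and 21% thinned) at median depths of 2486.5 and 3030 UMIs, against 0.221% and 0.682% of proximal tubule-like nuclei. Cluster 4 carried nearly all of it, with 234 and 246 UMIs. Of the other compared classes the fibroblast-like class was highest, at 36.6 and 46.2 CPM. The mural-like cluster, too small to be compared, had 11 Lama4 UMIs of 74386 in sham and 18 of 53832 in nephrectomy. The latter was a higher level than that of the endothelium-like class. In the thick ascending limb-like class the 11 nephrectomy UMIs came from 0.274% of nuclei, that is, from 1 nucleus. Per kb of merged exons, Lama3 and Lama4 of the endothelium-like class had overlapping intervals in both libraries, at 25.1 and 23.9 CPM per kb in sham and 17.8 and 21.8 in nephrectomy. Per kb of gene span Lama4 led in both libraries, and Lama5 came second.

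Among the beta chains, Lamb1 was highest in the fibroblast-like and several tubule-like classes of those compared. Lamb2 was highest in the endothelium-like, podocyte-like and fibroblast-like classes of those compared. By the rule given above, Lamb2 was also present in the thick ascending limb-like and distal convoluted tubule-like classes of both libraries. Lamb1 (chr12:31265234-31329644, plus strand) reached 188 and 173 CPM in the thick ascending limb-like class, 204 and 141 CPM in the fibroblast-like class, 146 and 139 CPM in the distal convoluted tubule-like class, 130 and 141 CPM in the principal cell-like class and 85.2 and 81.0 CPM in the proximal tubule-like class. In the podocyte-like class it had 2 UMIs in each library. The endothelium-like class was low as well, at 20.6 and 27.0 CPM. Libraries were close in most of these classes: the ratio was 0.918 (0.805 to 1.05) in the thick ascending limb-like class and 0.950 (0.868 to 1.04) in the proximal tubule-like class. The fibroblast-like class had the lowest ratio among those with 100 or more Lamb1 UMIs, 0.689 (0.484 to 0.982), and cluster 14 alone gave 0.659. With every nucleus thinned to 1000 UMIs the ratio was 1.05, so the direction turned.

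Lamb2 (chr9:108479736-108490530, plus strand), without which the glomerular filter leaks protein, stood highest of the compared classes in the endothelium-like class. Its level there was 72.7 CPM (60 UMIs) in sham and 82.0 CPM (79 UMIs) in nephrectomy. The podocyte-like class had 45.7 CPM (12 UMIs) and 49.6 CPM (30 UMIs) and the fibroblast-like class 39.6 and 42.0 CPM, and the intervals of these 3 classes overlapped in sham. None of these differed between the libraries beyond counting error: the ratios were 1.13 (0.796 to 1.60), 1.08 (0.539 to 2.32) and 1.06 (0.502 to 2.32). After thinning to 1000 UMIs the endothelial ratio was 0.740. The small mural-like cluster, outside the comparison, had 9 Lamb2 UMIs of 74386 in sham, a higher level than the endothelium-like class. In nephrectomy it had 4 of 53832. In proximal tubule-like nuclei Lamb2 was at 1.91 and 1.31 CPM, with a UMI in 1.87% and 1.66% of nuclei, against 24.4% and 25.6% of podocyte-like nuclei. Per kb of merged exons, the podocyte-like class had 7.52 and 8.15 CPM per kb of Lamb2 and 0.769 and 0.333 of Lamb1. The endothelium-like class likewise had more Lamb2 (12 and 13.5 CPM per kb) than Lamb1 (2.08 and 2.72). The thick ascending limb-like class had the reverse order, with 19.0 and 17.4 CPM per kb of Lamb1 against 1.81 and 2.04 of Lamb2, and so did the proximal tubule-like class with 8.59 and 8.17 against 0.314 and 0.216. These orders also held per kb of gene span. In the fibroblast-like class Lamb1 was the higher per kb of merged exons (20.6 and 14.2 against 6.51 and 6.91) and Lamb2 per kb of gene span (3.17 and 2.19 for Lamb1, 3.67 and 3.89 for Lamb2).

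Lamb3, a beta chain best known from skin, gave 241 of 290 UMIs in sham and 283 of 372 in nephrectomy from the proximal tubule-like class, where its level was 23.0 and 21.9 CPM. In the fibroblast-like class it had 82.3 CPM (27 UMIs) in sham and 16.8 CPM (8 UMIs) in nephrectomy, a ratio of 0.204 (0.0802 to 0.462). The share of fibroblast-like nuclei with a UMI was 32.0% in sham and 7.37% in nephrectomy (4% and 2.25% thinned), and no podocyte-like nucleus had one. The 12 fibroblast markers were all higher in the nephrectomy class, with Lum and Scara5 at 0 in sham, and their part in this value was not tested. Of all genes in that class, 14.6% were at least 1.5-fold lower in nephrectomy and 14.6% higher, and Lamb3 was the 1 chain of 7 with enough UMIs that passed the line. The annotated span of Lamb3 (chr1:193207699-193343878, plus strand, GRCm38) overlaps 42.442 kb with that of Hsd11b1, which encodes the enzyme that regenerates active glucocorticoid and lies on the opposite strand. Whether the counting used strand is not given in the sources used here. Whether reads of Hsd11b1 entered the Lamb3 counts is therefore not known and was not tested. Hsd11b1 stood at 1597 and 1185 CPM in the fibroblast-like class. In the proximal tubule-like class it was at 29.4 and 9.12 CPM, where Lamb3 had a ratio of 0.951 (0.798 to 1.13).

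**Figure D3:**
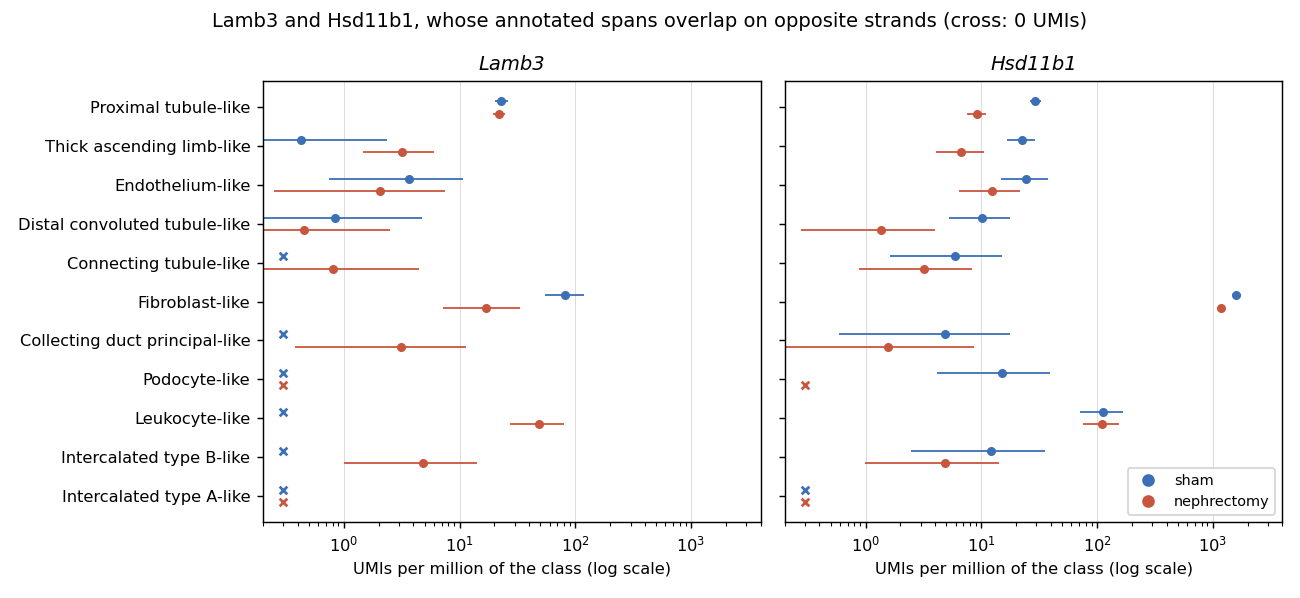
Lamb3 (left) and Hsd11b1 (right), whose annotated gene spans overlap on opposite strands, in CPM of each class on a log axis with 95% counting intervals (blue, sham; red, nephrectomy; crosses, 0 UMIs). Both are high in the fibroblast-like class, where sham is above nephrectomy for both, and in the proximal tubule-like class sham is above nephrectomy for Hsd11b1 while the Lamb3 intervals overlap.

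Lamc1 (chr1:153218922-153332786, minus strand), the gamma chain of nearly all laminins outside skin, was called present in 10 of the 11 classes in sham and in all 11 in nephrectomy. By that rule 22.1% (podocyte-like) to 82.7% (proximal tubule-like) of all genes were called present in sham, and 33.9% and 81.2% in those classes of nephrectomy. Of the compared classes, the endothelium-like class had the highest Lamc1 level, at 193 CPM (164 to 225) in sham. Its nephrectomy interval was 192 to 253 CPM. The principal cell-like class followed at 154 and 153 CPM, and the intervals of these classes overlapped in sham. Lamc1 was at 110 and 126 CPM in the fibroblast-like class and 70.7 and 77.1 in the thick ascending limb-like class. It was at 61.0 and 38.0 in the podocyte-like class, and 33.8 and 41.3 in the proximal tubule-like class. No compared class was near 0, so no background share from free RNA could be set for this gene. The nephrectomy level was above that of sham in 9 of the 11 classes, the exceptions being the podocyte-like and principal cell-like classes. All classes come from the same 2 libraries, and this count was not set beside one over all genes.

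Lamc3, a gamma chain outside the set, was a fibroblast gene, at 195 CPM (64 UMIs) and 141 CPM (67 UMIs), a ratio of 0.722 (0.505 to 1.03). Per kb of merged exons it exceeded Lamc1 in that class, with 32.0 and 23.1 CPM per kb against 13.3 and 15.2, and it did so per kb of gene span (3.29 and 2.38 against 0.963 and 1.11). The correlation of its log2 level with that of Lama2 over the 22 sums was 0.91, the highest between any 2 laminin chains.

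A class could assemble a trimer, in the sense used here, when the alpha, beta and gamma chains were all called present in it. Over the known trimers tried, 22 pairs of class and trimer were possible in sham and 27 in nephrectomy, and all 22 of sham were among the 27. By the same rule, the share of all genes called present ran from 22.1% in the podocyte-like class to 82.7% in the proximal tubule-like class of sham. Each class is therefore read beside that share. The proximal tubule-like class could assemble LM-111, LM-311 and LM-511 in both libraries, from Lama1, Lama3, Lama5, Lamb1 and Lamc1 (82.7% of all genes in sham and 81.2% in nephrectomy). The thick ascending limb-like class could assemble LM-111, LM-121, LM-511 and LM-521 (69.0% and 68.9% of genes present) and the distal convoluted tubule-like class LM-511 and LM-521 (55.7% and 61.1%). Laminin-511 was possible in both libraries in the connecting tubule-like (46.7% and 53.1%), principal cell-like (39.7% and 44.3%) and intercalated type A-like classes (24.4% and 34.7%).

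In the podocyte-like class the chains present were Lama5, Lamb2 and Lamc1 in both libraries, 3 of the 9 members, beside 22.1% of all genes present in sham and 33.9% in nephrectomy. Laminin-521 was therefore its only possible trimer. Per kb of merged exons these chains were at 13.1, 7.52 and 7.37 CPM per kb in sham and 11, 8.15 and 4.59 in nephrectomy. The trimer was lost in nephrectomy when a chain had to reach 0.5 of the level of the whole library, and in sham when it needed 20 UMIs. The endothelium-like class shared LM-521 and added LM-321 and LM-421 (53.8% and 52.3% of genes). That class pooled several clusters. Cluster 23, with the glomerular endothelium markers Plat, Pi16 and Kdr among its leading genes, gave 8 sham and 13 nephrectomy nuclei. The pooled sums therefore do not show which trimers glomerular endothelium could assemble. The fibroblast-like class had the most possible trimers, LM-211, LM-221, LM-411, LM-421, LM-213 and LM-423, from Lama2, Lama4, both of Lamb1 and Lamb2, and both of Lamc1 and Lamc3 (35.8% and 40.7% of genes). Lamb3 was present there in sham alone, which added no trimer. Laminin-523 was possible in no class.

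**Figure D4:**
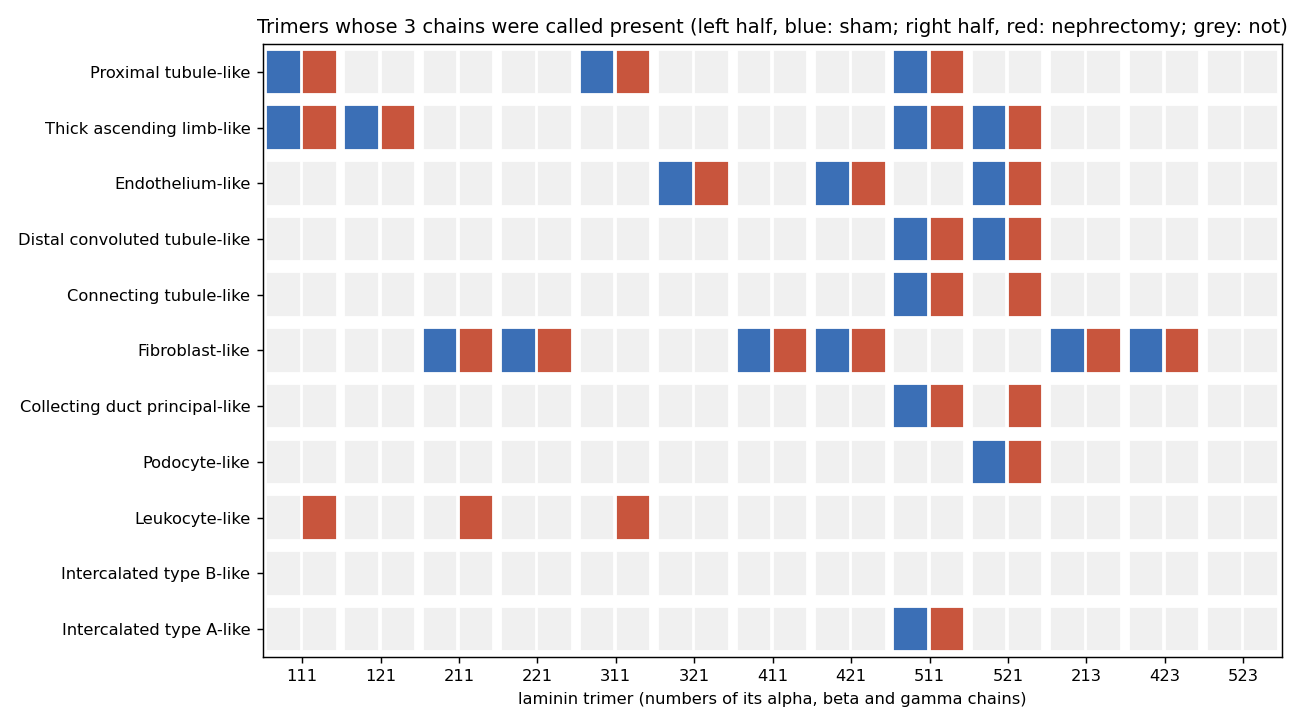
Laminin trimers (columns, named by the numbers of their alpha, beta and gamma chains) whose 3 chains were called present in each cell class (vertical axis), with the left bar of each cell for sham and the right bar for nephrectomy; grey means not possible. Sham has 22 and nephrectomy 27 coloured bars, and the podocyte-like class has LM-521 alone in both.

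The 5 trimers possible in nephrectomy alone rested on small counts. Laminin-521 in the principal cell-like and connecting tubule-like classes turned on Lamb2, which had 5 and 4 UMIs in sham and 11 and 14 in nephrectomy, with 10 needed. The other 3 (LM-111, LM-211 and LM-311) were in the leukocyte-like class, where 29.6% of genes were present in sham and 37.7% in nephrectomy. That class carried the proximal tubule markers described above, and the proximal tubule-like class also carries Lama1 and Lama3. Whether these UMIs come from leukocytes was not tested. In the intercalated type B-like class no trimer was possible (28.3% and 45.5% of genes present), since neither Lamb1 (5 and 21 UMIs, 20.1 and 33.8 CPM) nor Lamb2 (5 and 8 UMIs) passed.

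Since a trimer forms within 1 cell, nuclei with a UMI of each of its 3 chains were counted. Laminin-311 had the most: 102 of 907 proximal tubule-like nuclei in sham (11.2%) and 190 of 1026 in nephrectomy (18.5%). Laminin-111 followed with 45 (4.96%) and 113 (11%) and laminin-511 with 41 (4.52%) and 88 (8.58%). In the fibroblast-like class LM-213 was seen in 18 nuclei (24.0%) and 16 nuclei (16.8%), and LM-211 in 12 (16%) and 11 (11.6%). Laminin-421 was seen in 7 (2.54%) and 23 (8.13%) endothelium-like nuclei, and LM-521 in 2 (4.44%) and 4 (5.13%) podocyte-like nuclei. Nephrectomy nuclei were deeper in each of these classes, and after thinning to 1000 UMIs the counts were 1 and 0 for LM-311, 2 and 0 for LM-213, and 1 and 1 for LM-421. A difference between the libraries in such nuclei was therefore not detectable at this depth.

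Within classes, 56 of the 99 pairs of chain and class had at least 20 UMIs. In 10 of them nephrectomy was at least 1.5-fold higher and in 3 at least 1.5-fold lower, while 43 lay between. Over all genes in the same 11 classes, 12.9% of pairs were higher and 13.9% lower, so the total for the laminin chains was near the background. The split of the chains, 10 higher and 3 lower, was less even than that of all genes and was not tested. The counting interval of the ratio held 1 for 8 of the 13 and lay apart from it for 5. No chain was called in the proximal tubule-like (10.9% of all genes higher, 11.7% lower), endothelium-like (8.44% and 13.1%) or principal cell-like classes (11.9% and 15.3%). In the proximal tubule-like class, thinning to 1000 UMIs moved Lamc1 from 1.22 to 1.97, Lama5 from 1.12 to 1.92 and Lama1 from 1.20 to 1.69, all past the line. Lama2 there reached 1.76 with equal weight per nucleus, and Lamb2, at 0.688, passed the line downward in 2 alternatives (lowest 0.576). In the endothelium-like class Lama3, at 0.707, passed the line downward in 3 of 8 alternatives (lowest 0.649).

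**Figure D5:**
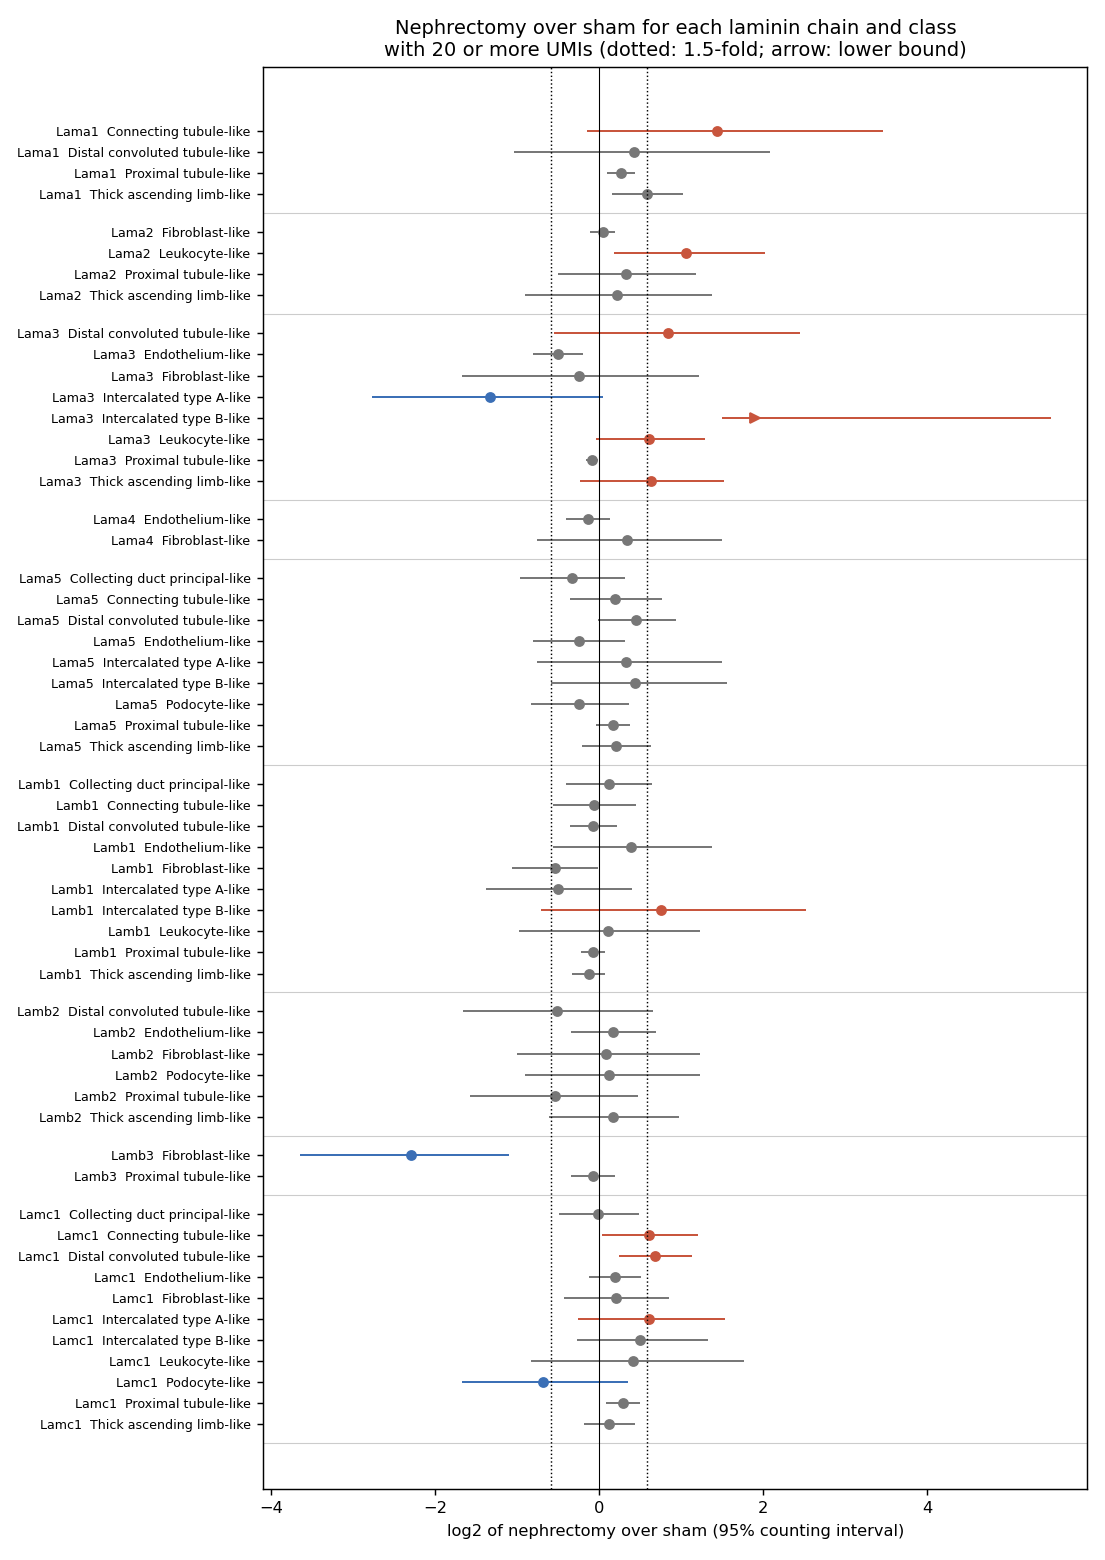
Nephrectomy over sham (log2) for the 56 pairs of laminin chain and cell class with 20 or more UMIs, with 95% counting intervals; dotted lines mark 1.5-fold either way, red is higher, blue lower and grey between, and a triangle is a lower bound against 0 UMIs in sham. Most points lie between the dotted lines, 10 are red and 3 blue.

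Lamc1 was called in 3 classes of the distal nephron and in the podocyte-like class. In the distal convoluted tubule-like class it had 51.5 CPM (61 UMIs) in sham and 82.8 CPM (183 UMIs) in nephrectomy, a ratio of 1.61 (1.20 to 2.18), in a class where 9.93% of all genes were called higher and 13.2% lower. In the connecting tubule-like class it had 53.5 CPM (36 UMIs) and 81.5 CPM (101 UMIs), a ratio of 1.52 (1.03 to 2.29), with 11% of genes higher and 16% lower. The intercalated type A-like class had 86.5 CPM (16 UMIs) and 131 CPM (46 UMIs), a ratio of 1.52 (0.845 to 2.88), with 18.4% and 15.7% of genes called. The podocyte-like class went the other way at 61.0 CPM (16 UMIs) and 38.0 CPM (23 UMIs), a ratio of 0.623 (0.315 to 1.26), with 16.5% and 13.5% called. Podocyte-like nuclei with a Lamc1 UMI were nearly as frequent in nephrectomy (20.5%) as in sham (20%). After thinning, the shares of distal convoluted tubule-like nuclei with a Lamc1 UMI were 5.76% in sham and 6.60% in nephrectomy, and those of connecting tubule-like nuclei 5.05% and 5.26%. The ratio of the thinned sums of the distal convoluted tubule-like class was 1.09, under the 1.5-fold line.

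The other calls rested on fewer UMIs. Lama1 had 4 sham and 20 nephrectomy UMIs in the connecting tubule-like class, a ratio of 2.71 (0.909 to 10.9). Lama3 was called in 5 classes outside the proximal tubule. It was higher in nephrectomy in the distal convoluted tubule-like class (6 and 20 UMIs, ratio 1.78, 0.691 to 5.43) and in the thick ascending limb-like class (19 and 35 UMIs, ratio 1.54, 0.860 to 2.86; 9.54% of genes higher, 12.1% lower). In the latter class cluster 5 had 7 and 32 UMIs and cluster 6 had 12 and 3, so its clusters differed in direction. In the intercalated type B-like class Lama3 had 0 and 28 UMIs, at least 3.74-fold higher against a floor of 3 UMIs in sham, and Lamb1 there had a ratio of 1.68 (0.618 to 5.72; 21.7% of genes higher, 14.8% lower). In the intercalated type A-like class Lama3 was lower, with 12 and 9 UMIs and a ratio of 0.397 (0.148 to 1.03). In the leukocyte-like class Lama2 (15 and 47 UMIs, ratio 2.09, 1.15 to 4.02) and Lama3 (30 and 69 UMIs, ratio 1.53, 0.984 to 2.43) were higher (21% of genes higher, 18.2% lower). The direction turned for Lama3 in the thick ascending limb-like class at a finer clustering (log2 -0.72), for Lama3 in the intercalated type B-like class without removal of doublets (-0.51) and for Lama2 in the leukocyte-like class at a coarser clustering (-0.85).

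Lama3 was highest in the proximal tubule-like class, and the proximal tubule markers differed in the same direction as Lama3 in some of these classes. Their sum was 836 CPM in sham and 3234 in nephrectomy in the intercalated type B-like class, where 11 of the 12 markers were higher in nephrectomy. In the intercalated type A-like class it was 2978 and 1281 CPM, and none of the 12 was higher. The distal convoluted tubule-like class (1234 and 967 CPM, 4 of 12 higher) and the thick ascending limb-like class (1165 and 919 CPM, 4 of 12) had lower sums in nephrectomy, where Lama3 was higher. No marker of the 12 was at 0 in any of these classes. Their part in the Lama3 values was not tested.

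The genes whose levels over the 22 sums most resembled each chain were taken from 12265 genes with at least 100 UMIs. For Lama2 they were Pdgfra (Pearson r 0.97), Fhl2 and Cxcl14, for Lama4 Map3k6 (0.95), Fscn1 and Ecscr, for Lama3 Agxt2 (0.91), Dleu2 and Acnat2, and for Lama1 Trio (0.80), Prr15l and Plpp2. For Lama5, B3galt2 (0.89) and Rapgef3 (0.88) were among them. Among the beta and gamma chains, Lamb1 was most like Tln2 (0.91), Ift81 and Arhgap6, Lamb2 most like Rbms2 (0.90), Laptm4a and Zbtb46, Lamb3 most like Dtx4 (0.87), Hs6st2 and Adgrb3, and Lamc1 most like Tmtc2 (0.88), Lmtk3 and Herc1. The sums share 2 libraries and differ in depth, and the correlations are descriptions.

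The cells' side of the laminin network was read from lists of receptors, of the enzymes that build the laminin-binding glycan of dystroglycan, of network partners, and of proteases with their inhibitors. Of 14 receptor genes, none was at least 1.5-fold higher over all nuclei and 1 was lower, beside the 9.27% and 10.7% of all genes. That gene was Itga9, an integrin alpha subunit, at 29.3 CPM in sham and 18.2 in nephrectomy (ratio 0.621, 0.549 to 0.703). The median log2 ratio of the receptors was 0.07, beside 0.02 over all genes. In the fibroblast-like class Itga9 stood at 481 CPM (158 UMIs) in sham and 139 CPM (66 UMIs) in nephrectomy, a ratio of 0.288 (0.213 to 0.386), and Itga3, a laminin-binding integrin subunit, at 91.4 and 39.9 CPM (0.437, 0.232 to 0.802). In the podocyte-like class, where Itga3 and dystroglycan (Dag1) hold the foot processes to the basement membrane, Itga3 had 438 and 349 CPM and Dag1 438 and 535 CPM, and neither ratio reached 1.5-fold. In the principal cell-like class both were lower in nephrectomy: Dag1 at 257 and 156 CPM (0.609, 0.458 to 0.808) and Itga3 at 118 and 53.2 CPM (0.453, 0.283 to 0.717).

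Of the 13 dystroglycan glycan enzymes found, 2 were at least 1.5-fold higher over all nuclei and none lower, beside 9.27% and 10.7% of all genes, and their median log2 ratio was 0.09, beside 0.02 over all genes. Pomgnt2, which acts early in building that glycan, was one of the higher ones, at 4.66 and 7.22 CPM (1.55, 1.20 to 2.01).

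Of 31 network partners with enough UMIs, 6 were higher and 1 lower over all nuclei, beside 9.27% and 10.7% of all genes, with a median log2 ratio of 0.05. Npnt, the nephronectin of tubular basement membranes, was the lower one at 173 and 105 CPM (0.607, 0.577 to 0.639), and in the proximal tubule-like class, whose clusters differ between the libraries as given above, it had 188 and 75.9 CPM (0.403, 0.373 to 0.436). Papln, a papilin, had the highest ratio at 1.71 and 4.48 CPM (2.62, 1.77 to 3.98), followed by Frem1, a component of the Fraser complex of epithelial basement membranes, at 6.99 and 12.9 CPM (1.84, 1.5 to 2.27). In the fibroblast-like class 7 of 22 partners were higher and 3 lower, beside 14.6% of all genes in each direction. Thsd4 there had 204 and 429 CPM (2.10, 1.59 to 2.81). In the podocyte-like class Pxdn, the peroxidase that crosslinks collagen IV, had 2 and 32 UMIs (ratio 6.93, 1.77 to 59.7). In the endothelium-like class none of 21 partners was higher and 3 were lower, beside 8.44% and 13.1% of all genes.

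Among 12 proteases and inhibitors with enough UMIs, 5 were higher and 3 lower over all nuclei, beside 9.27% and 10.7% of all genes, and the median log2 ratio was 0.27. Mmp14, a membrane-bound metalloproteinase, had 2.23 and 5.02 CPM (2.25, 1.58 to 3.26). Plau, a plasminogen activator, had 89.5 and 52.1 CPM (0.582, 0.542 to 0.626). Plat, the tissue-type activator, was lower in nephrectomy in the podocyte-like class, at 785 and 421.3 CPM (0.536, 0.445 to 0.648), and higher in the endothelium-like class, at 182 and 330 CPM (1.82, 1.49 to 2.22). The difference between those 2 ratios was not tested, since each rests on 1 library per group. Plat was the leading gene of endothelial cluster 23, with 8 sham and 13 nephrectomy nuclei, while endothelial cluster 16 had 71 and 44. The part of this shift between clusters in the endothelial ratio was not tested.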

How the data were processed

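Processed files were the deposited filtered 10x matrices of both libraries, whole-number UMI counts per gene and nucleus. The authors' counting used Cell Ranger 7.1.0 and mm10, per the submitters' processing notes. The strand setting and the use of introns are not given in the sources used here. Barcodes with under 200 genes or over 10% mitochondrial UMIs were left out (109 sham, 112 nephrectomy). The doublet caller of scanpy 1.11.5 called 0 and 1 nuclei at its own threshold, so it had not worked as a caller. The top 3% of scores per library and clusters rich in them were removed instead (105 and 107 nuclei), and some doublets will remain. Nuclei were clustered (2000 variable genes, 30 components, 15 neighbours, Leiden resolution 1, leidenalg 0.10.2) and named "-like" from marker lists. UMIs were summed per class and library and given as CPM. A ratio has an exact conditional binomial interval, and 1.5-fold with at least 20 UMIs over both libraries counts as a call. Sequencing depth per library was 21365116 and 28284727 UMIs over 3084 and 3299 barcodes. With 1 library per group no test was made. Sums scaled by TMM (edgeR 4.0.16), thinning to 1000 UMIs, other filters, clusterings and thresholds were tried as alternatives. Gene models were GENCODE M21 on GRCm38, which held 32235 of the 32285 gene identifiers, and promoters RefSeq. The text names all members, genes among the 2 highest and 2 lowest ratios of each related list in a class or over all nuclei, and the 3 genes most like each member by correlation of log2(CPM + 1). Results for some of these genes are not reported here. Members and lists were chosen with earlier results of these data known. The code was tested on simulated data.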

Additional observations from a re-analysis of the deposited data

Results flagged for a closer look

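Outside the proximal tubule-like class, and counting ratios of at least 1.5-fold with 20 or more UMIs, Lama3 was higher in nephrectomy in 4 classes and lower in 1. Over all genes in the 11 classes, 12.9% of pairs of gene and class were higher by that rule and 13.9% lower. The ratios of nephrectomy to sham were 1.78 in the distal convoluted tubule-like class, 3.74 (a lower bound against the floor) in the intercalated type B-like class, 1.53 in the leukocyte-like class and 1.54 in the thick ascending limb-like class, against 0.397 in the intercalated type A-like class. By the same rule Lamc1 was higher in the connecting tubule-like (1.52), distal convoluted tubule-like (1.61) and intercalated type A-like (1.52) classes and lower in the podocyte-like class (0.623). These opposite directions between classes were not tested, since each group is 1 library.

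Outside the classes compared, Lama4 had a ratio of 2.26 in the mural-like cluster (11 and 18 UMIs in 19 and 12 nuclei). Lamc1 in the parietal epithelium-like cluster (7 and 21 nuclei) had 0 UMIs in sham and 26 in nephrectomy, at least 1.54-fold higher against a floor of 3 UMIs. Lamb3 had a ratio of 2.57 in the unnamed clusters, at 7.03 CPM in sham and 18.1 CPM in nephrectomy.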

How the results depend on the processing

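Over all nuclei, no chain passed 1.5-fold under the alternatives run, except that thinning to 1000 UMIs gave 1 (Lama1, higher, log2 0.62). Within classes the 13 calls became 39 with no minimum of UMIs, 2 with a minimum of 100, 5 at 2-fold, 6 after thinning, and 8 in the 7 classes with clusters of at least 50 nuclei from each library. Possible trimers, 22 in sham and 27 in nephrectomy, became 8 and 9 when a chain had to reach the level of the whole library, and 6 and 10 after thinning; other settings kept both counts within 1.5 times. Laminin-521 of the podocyte-like class was lost in nephrectomy at a required share of 0.5 and in sham at a minimum of 20 UMIs per chain. Of 424 recomputed ratios, 390 kept their value within counting error, 31 moved and 3 reversed: Lama3 in the intercalated type B-like class without removal of doublets (log2 -0.51), Lama2 in the leukocyte-like class at Leiden resolution 0.5 (-0.85) and Lama3 in the thick ascending limb-like class at resolution 2 (-0.72). The cause was not tested. Of the 13 called ratios, 3 stayed past 1.5-fold under each recomputation that left them at least 20 UMIs. They were Lama1 (connecting tubule-like class, 2.45 to 4.21), Lama3 (distal convoluted tubule-like class, 1.55 to 2.03) and Lamb3 (fibroblast-like class, 0.157 to 0.350). Each had 5 or 6 such recomputations, which did not include the 2-fold line or the changed minimums of UMIs. The counting intervals of these Lama1 and Lama3 ratios held 1, as given above. Lamc1 in the distal convoluted tubule-like class ranged from 1.09 (thinned) to 1.63. After the data were seen, leaving out Lamb3 gave 12 calls and leaving out the leukocyte-like and intercalated type B-like classes gave 9. No paired analysis was possible because each group is 1 library, and no library could be left out.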

Other observations

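Clusters too small to be compared also carried laminin chains. The share of all genes called present was not computed for these clusters, so their possible trimers have no background beside them. The injured proximal tubule-like cluster, with 6 sham and 44 nephrectomy nuclei, had in nephrectomy 249 CPM of Lama3 (115 UMIs), 171 CPM of Lamb1 (79 UMIs), 102 CPM of Lama1 (47 UMIs), 91.0 CPM of Lama5 (42 UMIs) and 88.9 CPM of Lamc1 (41 UMIs). Lama2 (14 UMIs) and Lama4 (15 UMIs) also passed the rule for a present chain there, so that 5 trimers, LM-111, LM-211, LM-311, LM-411 and LM-511, were possible. The 6 sham nuclei allow no comparison.

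The parietal epithelium-like cluster, with 7 and 21 nuclei, had 49 nephrectomy UMIs of Lama2 (295 CPM), and laminin-211 and laminin-213 were possible in it. The thin limb-like cluster, with 29 and 21 nuclei, had the highest sham level of Lamb1 of any named class, 364 CPM (54 UMIs), beside 211.4 CPM (27 UMIs) in nephrectomy. Its Lama3 level was 142 and 125 CPM, and laminin-311 was possible in both libraries.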
